A study of Mus musculus with 12 samples.

Results

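Regions of open chromatin that all 5 populations of liver macrophages held in their ATAC-seq peak lists, and that blood monocytes lacked, are described here. They were selected on the lists themselves: overlapping peaks of all 6 lists were merged, and a merged region was kept when each of the 5 liver lists had a peak in it and the blood list had none. This left 940 of 100354 merged regions. They made up 3.56% of the 26381 regions held by all 5 liver lists (95% Wilson interval 3.35% to 3.79%), and the other 25441 were in all 6 lists. Presence in the liver lists and absence from the blood list are therefore what chose the regions and are no result. The rule also kept blood peaks from overlapping a region, so the lower end of the distances to blood peak centres, 204 bp, was set by it. The score of a region within each liver list, its position relative to genes and its sequence were not used.

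ATAC-seq, in which a transposase cuts and tags accessible DNA, was done on myeloid cells sorted from C57BL/6J mice, with 2 libraries for each of 6 groups. Per the labels, 3 groups of liver macrophages were F4/80-high: Tim4-negative Kupffer cells from mice on a NASH diet (KN-RM), Tim4-positive Kupffer cells on the NASH diet (KC-N) and Tim4-positive Kupffer cells on a control diet (KC-H). A NASH diet models nonalcoholic steatohepatitis. Recruited CD11b-high macrophages of NASH livers were sorted as Ly6C-low (Ly6CLo-RM) and Ly6C-high (Ly6CHi-RM), and Ly6C-high monocytes came from the blood of NASH-diet mice (Blood-Ly6CHi-NASH). Blood of control-diet mice was not analysed here, so the blood list stands for NASH-diet monocytes alone. Liver cells were digested with enzymes in the presence of flavopiridol, which blocks transcription. For a region absent from blood, the organ and the way its cells were isolated cannot be told apart. Peaks at the sorting gene Timd4 numbered 0 in KN-RM, 1 in KC-N, 1 in Ly6CLo-RM, 0 in Ly6CHi-RM, 17 in KC-H and 0 in blood, so the KC-N list did not carry the accessible Timd4 locus of the KC-H list. Peaks at Clec4f, a Kupffer cell lectin gene, numbered 5, 7, 0, 1, 18 and 1 in the same order.

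Kupffer cells are the resident macrophages of the liver. They line its sinusoids, clear particles and dying cells from the blood, and can be replaced by blood monocytes that enter the liver and take on Kupffer cell features when residents are lost. In macrophages, accessible chromatin marks promoters and enhancers held open by lineage factors such as PU.1 together with signal-dependent factors such as AP-1 and NF-kB. A region open in every liver population and missing from blood monocytes is one that resident and recruited populations have in common in these lists.

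Each group had 1 peak list made from both of its libraries, so no value exists per library and no comparison below has a test. Intervals cover counting error only. The lists held 34293 (KN-RM), 50550 (KC-N), 54621 (Ly6CLo-RM), 61492 (Ly6CHi-RM), 63501 (KC-H) and 69616 (blood) peaks, nearly all 200 bp wide. The same kind of count was made for each list in turn, as regions held by the 5 other lists and missing from that one. The share missing was 18.2% for KN-RM, the shortest list, 4.28% for Ly6CLo-RM, 2.05% for KC-N, 3.21% for KC-H and 0.714% for Ly6CHi-RM, so the 3.56% missing from blood was within the range of the other lists. The length of the lists bears on this order. With every list held to its 34293 best-scored peaks, the share missing from blood was 7.03% (6.68% to 7.39%), the highest of the 6, against 3.66% for KN-RM, 3.18% for KC-N, 4.62% for Ly6CLo-RM, 1.17% for Ly6CHi-RM and 6.13% (5.80% to 6.47%) for KC-H.

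Few of the 940 regions lay at promoters, and the promoter sequences that can be shown come from those few. A window from 250 bases before to 50 bases after an annotated start site was overlapped by 49 of the 940 regions, and 18 of these 49 had no blood peak centre within 1000 bp. Among windows that such an isolated region covered by at least 100 bp, the 6 printed here are from genes of macrophage or adhesion function and hold a match to one of the motifs marked; they were picked after their values and matches were seen. The windows of Cd36, Tnfaip3 and Tnfsf15 met the same conditions of position and held no match to these motifs. C1qc encodes a chain of the complement starter C1q, and Fblim1 a filamin-binding adapter of cell adhesions. Acod1 makes the metabolite itaconate in activated macrophages. F11r encodes a junctional adhesion molecule, Bcl2a1b a survival protein of the BCL2 family and H2-Q6 a nonclassical MHC class I protein. Bcl2a1b and H2-Q6 have close relatives in the mouse genome, so reads there may have been shared between copies. The sequences are from RefSeq (GRCm38.p6), each 300 bases on the strand of its gene, 5′ to 3′. The windows are chr4:136892865-136893164 (C1qc, minus strand), chr4:141606003-141606302 (Fblim1, minus), chr14:103046762-103047061 (Acod1, plus), chr1:171437311-171437610 (F11r, plus), chr9:89199023-89199322 (Bcl2a1b, plus) and chr17:35424600-35424899 (H2-Q6, plus). Capitals mark matches on either strand to the AP-1 motif TGANTCA, the PU.1/ETS motif AGGAAGT or the NF-kB motif GGGNNTTCC.
C1qc: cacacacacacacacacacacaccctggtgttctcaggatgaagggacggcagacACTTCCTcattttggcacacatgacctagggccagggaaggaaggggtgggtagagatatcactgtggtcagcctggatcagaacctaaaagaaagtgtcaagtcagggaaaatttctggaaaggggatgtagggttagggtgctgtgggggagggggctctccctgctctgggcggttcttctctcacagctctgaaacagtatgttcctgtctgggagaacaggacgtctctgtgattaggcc
Fblim1: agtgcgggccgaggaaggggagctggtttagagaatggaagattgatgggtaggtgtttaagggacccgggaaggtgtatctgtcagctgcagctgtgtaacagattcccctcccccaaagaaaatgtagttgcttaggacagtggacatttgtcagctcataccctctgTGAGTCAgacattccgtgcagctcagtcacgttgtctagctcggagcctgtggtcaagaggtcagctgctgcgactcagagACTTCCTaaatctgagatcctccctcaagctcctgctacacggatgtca
Acod1: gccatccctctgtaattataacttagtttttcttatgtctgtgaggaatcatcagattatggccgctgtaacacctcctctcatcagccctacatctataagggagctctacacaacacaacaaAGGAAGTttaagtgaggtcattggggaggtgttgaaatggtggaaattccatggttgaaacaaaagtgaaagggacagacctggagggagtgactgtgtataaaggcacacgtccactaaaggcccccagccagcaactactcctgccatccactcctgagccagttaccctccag
F11r: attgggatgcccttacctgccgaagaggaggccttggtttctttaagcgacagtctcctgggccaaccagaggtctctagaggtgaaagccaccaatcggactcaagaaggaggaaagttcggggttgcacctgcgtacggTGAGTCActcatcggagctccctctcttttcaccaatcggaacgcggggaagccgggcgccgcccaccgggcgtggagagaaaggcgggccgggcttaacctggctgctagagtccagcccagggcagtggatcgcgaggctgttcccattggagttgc
Bcl2a1b: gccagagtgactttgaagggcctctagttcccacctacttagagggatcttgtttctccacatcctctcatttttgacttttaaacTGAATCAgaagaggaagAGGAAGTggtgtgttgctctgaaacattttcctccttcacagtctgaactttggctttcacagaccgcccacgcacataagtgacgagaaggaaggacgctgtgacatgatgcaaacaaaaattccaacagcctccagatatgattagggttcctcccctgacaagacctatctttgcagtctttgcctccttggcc
H2-Q6: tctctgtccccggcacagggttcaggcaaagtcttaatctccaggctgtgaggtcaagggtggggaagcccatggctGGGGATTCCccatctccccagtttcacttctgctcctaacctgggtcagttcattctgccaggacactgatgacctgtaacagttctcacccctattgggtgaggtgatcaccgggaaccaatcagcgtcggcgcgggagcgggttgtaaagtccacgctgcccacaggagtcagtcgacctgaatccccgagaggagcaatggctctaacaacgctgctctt

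The C1qc window has its PU.1/ETS match 195 to 189 bases before the start site. Fblim1 has an AP-1 match 80 to 74 bases before the start and a PU.1/ETS match 1 to 7 bases after it. In F11r the AP-1 match lies 109 to 103 bases before the start. Bcl2a1b has an AP-1 match 164 to 158 and a PU.1/ETS match 147 to 141 bases before the start. H2-Q6 has the NF-kB match 173 to 165 bases before it. The matches of Bcl2a1b and H2-Q6 lie outside the regions absent from blood, which are chr9:89199176-89199426 and chr17:35424713-35424918. Whole windows were searched, here and in the counts below, so a match can lie outside the region. No capitalized matches overlap each other. A match is a string of letters and not evidence of binding.

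Across the 49 windows, AP-1 letters were in 10, or 20.4% (11.5% to 33.6%), against 4.71% of the 7494 windows overlapped by regions of all 6 lists and 7.81% of all 32817 windows in the table. The PU.1/ETS letters were in 16.3% (8.51% to 29.0%) against 10.0%, an interval that holds the value for regions of all 6 lists. GC boxes (GGGGCGG) were in 22.4% against 48.1%, and the NFY letters CCAAT were in 22.4% against 41.9%. Of all windows, 23.2% held GC boxes, close to the share of the 49, and 37.4% held CCAAT. The MEF2 letters TANNNNTAG were in 28.6% (17.8% to 42.4%) against 13.3%, and in 21.0% of all windows. The windows absent from blood were also less rich in CpG than those of all 6 lists, but richer than all windows. Their median ratio of observed to expected CpG was 0.559 against 0.802, and their median GC content was 55.0% against 62.0%. Over all windows these medians were 0.383 and 52.7%. Base composition thus moved together with the motif counts, and its part in them was not tested. Of the 53 windows overlapped by regions of all 5 NASH-diet lists that the control-diet list lacked, 9.43% (4.10% to 20.2%) held AP-1 letters. Their median CpG ratio was 0.426, lower still. That AP-1 interval overlaps the one of the 49 windows. Of the 10 windows with AP-1 letters, 7 had no blood peak centre within 1000 bp.

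The regions absent from blood had lower scores than regions of all 6 lists in every liver list, and by far the largest gap was in the recruited Ly6C-high macrophages. Score is given as a percentile within the own list, 100 being the best-scored peak. The mean percentile of the 940 regions was 42.1 in KN-RM, 56.6 in KC-N, 43.7 in Ly6CLo-RM, 32.3 in Ly6CHi-RM and 56.8 in KC-H. For the 25441 regions of all 6 lists it was 57.2, 68.7, 69.7, 73.8 and 73.8 in the same order. The difference was −41.5 points in Ly6CHi-RM, −26.0 in Ly6CLo-RM and −12.1 to −17.1 in the 3 F4/80-high lists. In Ly6CHi-RM, 97.9% of the 940 regions lay below the median of the regions of all 6 lists. The corresponding shares were 91.0% in Ly6CLo-RM and 71.6% to 79.4% in the F4/80-high lists.

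**Figure D1:**
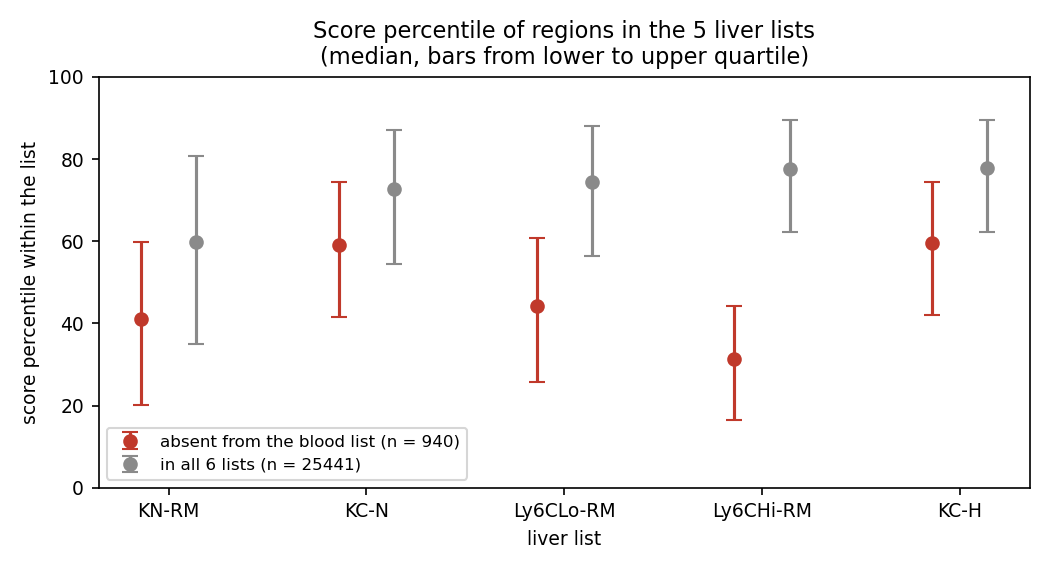
Score percentile (y axis, 0 to 100, within each list) of the 940 regions absent from the blood list (red, left of each pair) and of the 25441 regions of all 6 lists (grey, right) in the 5 liver lists (x axis). Points are medians and bars run from the lower to the upper quartile over regions. The medians are 31.4 against 77.6 in Ly6CHi-RM and 59.6 against 77.7 in KC-H.

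Ranked among the 5 liver lists region by region, Ly6CHi-RM was the lowest in 41.6% of the 940 regions, against 7.47% of the regions of all 6 lists. KN-RM, the list most often lowest among regions of all 6 lists (59.2%), was the lowest in 27.1% of the 940. Normalized tag counts again put both recruited populations lowest relative to regions of all 6 lists. The median tag count of the 940 regions was 0.258 times that of the regions of all 6 lists in Ly6CHi-RM, 0.428 times in Ly6CLo-RM, 0.762 times in KN-RM, 0.746 times in KC-N and 0.594 times in KC-H.

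Within NASH livers, the 940 regions leaned to the F4/80-high cells. The mean percentile over KN-RM and KC-N minus that over Ly6CLo-RM and Ly6CHi-RM had a median of 9.15 points, and it was positive in 65.7% of the 940 regions. Among regions of all 6 lists the median was −6.61 and 24.7% were positive. Between the recruited populations the 940 regions were higher in the Ly6C-low cells: Ly6CLo-RM minus Ly6CHi-RM had a median of 11.1 points and was positive in 71.3%, against a median of −1.87 and 35.8% for regions of all 6 lists. The difference between diets was smaller. KC-N minus KC-H had a median of −1.76 points in the 940 regions, against −3.44 in regions of all 6 lists, and was positive in 44.3% against 29.7%.

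Regions that the blood list held with a low score had liver scores like those of the 940. Among regions of all 6 lists, 257 had a blood peak in the lowest 10% of blood scores. Their mean percentiles were 37.7 in KN-RM, 50.3 in KC-N, 40.3 in Ly6CLo-RM, 34.2 in Ly6CHi-RM and 53.9 in KC-H, close to the values for the 940. By position, 6 of the 940 regions had a blood peak whose edge lay within 20 bp, with a median percentile of 60.1 over the liver lists, and 4 regions of all 6 lists were joined to blood by an overlap of 20 bp or less, with a median of 76.4. A similar lean was seen when another list was the missing one. The 845 regions of all 5 NASH-diet lists that KC-H lacked differed from the regions of all 6 lists in mean percentile by −26.3 points in KN-RM and −24.5 in KC-N, by −8.35 in Ly6CLo-RM and −8.98 in Ly6CHi-RM, and by −15.3 in blood. The largest differences were thus in the recruited Ly6C-high list for regions missing from Ly6C-high blood monocytes, and in both F4/80-high NASH lists for regions missing from F4/80-high control-diet cells, with blood between these and the recruited lists.

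Regions of higher score were less often missing from blood. Regions of all 5 liver lists were divided into 5 equal classes by mean percentile over those lists, class 1 being the lowest. The blood list lacked 10.3% of class 1 (9.54% to 11.2%), 4.47% of class 2, 2.31% of class 3, 0.531% of class 4 and 0.171% of class 5 (0.0898% to 0.324%). Of the 940 regions, 545 were in class 1 and 9 in class 5.

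A large part of the 940 regions lay beside a blood peak. The nearest blood peak centre was within 500 bp of 208 regions (22.1%) and within 1000 bp of 401 (42.7%, 39.5% to 45.8%). It was farther than 1000 bp for 539, farther than 50000 bp for 24 and farther than 100000 bp for 12, with a median of 1370 bp. The 845 regions that the control-diet list lacked were more isolated from it: 20.9% (18.3% to 23.8%) had a KC-H peak centre within 1000 bp, and the median was 6359 bp. The blood list has more peaks than the KC-H list, and the part of list length in this difference was not tested.

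**Figure D2:**
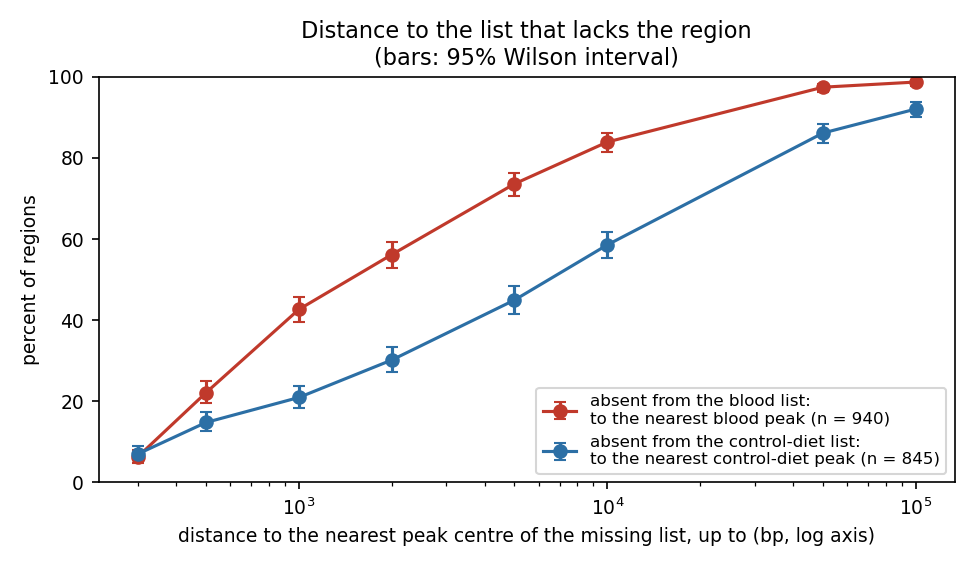
Percent of regions (y axis) whose nearest peak centre in the list that lacks them is within a given distance (x axis, bp, log scale), for the 940 regions absent from the blood list (red) and the 845 regions absent from the control-diet list KC-H (blue). Bars are 95% Wilson intervals. At 1000 bp the curves stand at 42.7% and 20.9%, and at 300 bp they overlap.

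The 539 isolated regions showed the lean to F4/80-high cells more than the 401 with a blood peak nearby. The difference of the NASH F4/80-high and CD11b-high means had a median of 15.4 points in the 539 and 2.62 points in the 401. Ly6CHi-RM was the lowest liver list in 50.1% of the 539 regions. No region of the 539 was in the top 10% of the Ly6CHi-RM list, and 0.742% were in that of Ly6CLo-RM. The shares were 7.05% for KC-N, 6.87% for KC-H and 2.41% for KN-RM. All were below the shares of regions of all 6 lists. Those were 23.5% in Ly6CHi-RM, 21.1% in Ly6CLo-RM, 19.5% in KC-N, 23.7% in KC-H and 13.15% in KN-RM.

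The 940 regions lay mostly away from genes' ends. The share within 1 kb of either end of a coding gene was 19.1% (16.8% to 21.8%), against 40.4% of regions of all 6 lists. A promoter window was overlapped by 5.21% against 30.0%. Both sets lay inside genes about equally often, at 54.7% and 54.1%. The median distance to a gene end was 9623 bp for the 940 regions and 2646 bp for regions of all 6 lists. The 845 regions that the control-diet list lacked also lay mostly away from gene ends. Of these, 14.79% (12.56% to 17.35%) were within 1 kb of one and 6.27% overlapped a promoter window. Score moved with position: in score class 1, 19.4% of the regions absent from blood were near a gene end (16.4% to 23.0%) against 22.3% of regions of all 6 lists, and the intervals overlapped. In class 2 the shares were 17.4% (13.1% to 22.7%) against 29.1%, and in class 3 17.2% (11.5% to 24.9%) against 34.2%. In classes 4 and 5, with 28 and 9 regions absent from blood, the shares were 28.6% (15.3% to 47.1%) against 43.9% and 44.4% (18.9% to 73.3%) against 70.2%, and both intervals held the value for regions of all 6 lists. The share differed more by distance to blood peaks. Of the 539 isolated regions 7.24% (5.34% to 9.74%) were near a gene end, and of the 401 with a blood peak within 1000 bp 35.2% (30.7% to 40.0%) were.

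**Figure D3:**
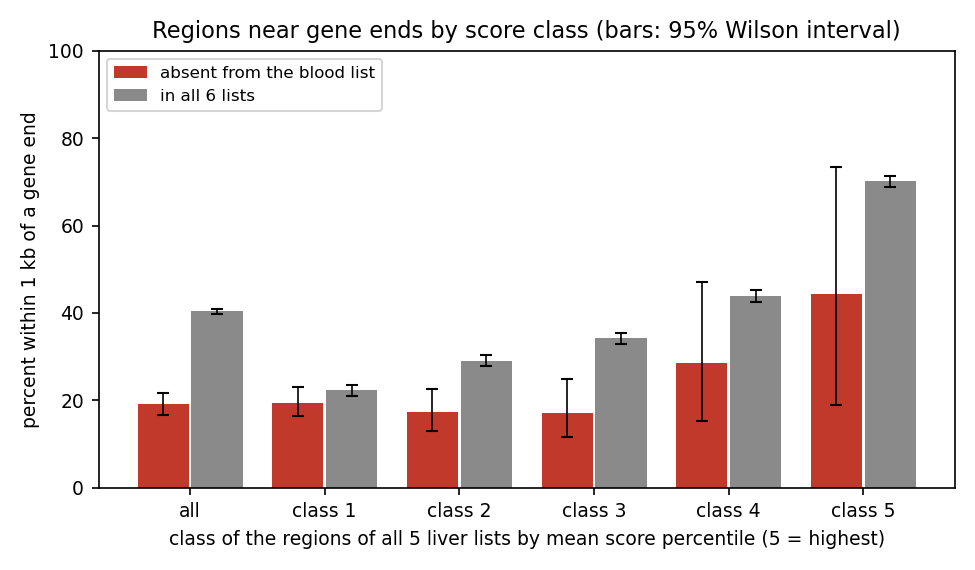
Percent of regions within 1 kb of either end of a coding gene (y axis) for the regions absent from the blood list (red, left) and those of all 6 lists (grey, right), over all regions and in 5 classes by mean score percentile over the liver lists (x axis, class 5 the highest). Bars are 95% Wilson intervals. Over all regions the shares are 19.1% and 40.4%, and in class 1 19.4% and 22.3%.

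A gene was given to a region when it held the region's centre, or else was the nearest within 100 kb. Of the 940 regions, 60 had no gene within 100 kb. The other 880 fell to 756 genes, or 6.86% of the 11018 genes with a region of all 5 liver lists. Of these 756 genes, 664 had 1 region and 92 had 2 or more. By the same assignment, 731 of the 756 genes had a blood peak elsewhere at the gene, and 25 had none. The same share was not counted over all 11018 genes. Most regions of all 5 liver lists held a blood peak, so these counts do not set the 756 genes apart.

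The integrin gene Itga9 (chr9:118606709-118901003) and the inositol phosphate kinase gene Itpkb led with 5 regions each. All 5 regions of Itga9 lay inside the gene, 4690 to 11069 bp from the nearest blood peak centre. Between the first and the last lay 0 regions of all 6 lists and 1 region with a blood peak. The gene had 26 peaks in KN-RM, 34 in KC-N, 14 in Ly6CLo-RM, 15 in Ly6CHi-RM, 47 in KC-H and 11 in blood. Its strongest region, chr9:118662588-118662829, stood at percentiles of 94.4 in KN-RM, 97.1 in KC-N, 63.5 in Ly6CLo-RM, 72.6 in Ly6CHi-RM and 96.7 in KC-H. The other 4 Itga9 regions were at 4.9 to 27.6 in Ly6CHi-RM and at 76.8 to 91.2 in KC-H. Itga9 regions thus scored high in the control-diet Kupffer cells and, except for the strongest, low in the recruited Ly6C-high cells. At Itpkb, the region chr1:180390393-180390675 was at 90.0 in Ly6CLo-RM and 9.7 in KC-H, so its regions did not share one order of lists.

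Hilpda, which encodes a lipid droplet protein that restrains fat breakdown and is induced by hypoxia, had 4 such regions out of 5 held by all liver lists. The gene had 8 peaks in KN-RM, 10 in KC-N, 5 in Ly6CLo-RM, 5 in Ly6CHi-RM, 9 in KC-H and 1 in blood. The region 1305 bp from the gene, chr6:29271048-29271318, stood at 74.6 in KN-RM, 87.7 in KC-N, 86.2 in Ly6CLo-RM, 82.0 in Ly6CHi-RM and 89.1 in KC-H. It was thus high in all 5 liver lists, with the nearest blood peak centre 1370 bp away. A farther one, 26550 bp from the gene, was at 89.3 in KN-RM, 96.1 in KC-N, 42.5 in Ly6CLo-RM and 78.5 in Ly6CHi-RM.

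Genes with 4 regions also included Tnfaip3, encoding the NF-kB feedback inhibitor A20, where all 4 regions were over 1000 bp from a blood peak centre. Tnfaip3 had 33 peaks in Ly6CLo-RM and 11 in blood. At 3 of its 4 regions Ly6CLo-RM was the highest list, at percentiles of 72.0, 76.8 and 73.9, while KN-RM was at 24.1, 12.5 and 41.2. Dnmt3a, a DNA methyltransferase gene, had 4 regions within its body, with Ly6CHi-RM at 23.4 to 40.0 in them. Hivep2, a zinc finger factor gene, Iqgap1, a cytoskeletal scaffold gene, and the centrosome gene Sfi1 had 4 regions each. Sfi1 (chr11:3131850-3203347) had 43 peaks in KN-RM, the shortest list, 34 in KC-N, 52 in KC-H and 11 in blood. How uniquely reads map there was not tested. The genes with 3 regions that followed in rank were Rftn1, Rab20, Fosb, Cd74, Rngtt, Tns3, Arhgap10, Stk10, Abcg1, Tomm20, Cadm1 and Ado. Abcg1 exports cholesterol from macrophages, Cadm1 is a cell adhesion gene and Fosb a subunit of AP-1. All 3 regions of Fosb and all 3 of Cd74 had a blood peak centre within 1000 bp. All 3 of Cadm1, Rngtt, Tns3 and Arhgap10 had none.

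Among the 25 genes to which no blood peak was assigned were C1qc, Pdk4, Dcstamp, Enpp2, Plxna2 and Ppp1r15a. The C1qc region covers the promoter printed above, at chr4:136892914-136893142, and its nearest blood peak centre was 51727 bp away. It had normalized tag counts of 37.3 in KN-RM, 59.1 in KC-N, 74.1 in Ly6CLo-RM, 44.3 in Ly6CHi-RM and 55.6 in KC-H, and percentiles of 82.4, 83.5, 69.3, 62.2 and 88.0. The median tag counts of these lists were 19.6, 26.9, 44.1, 46.4 and 17.5, so the C1qc promoter was below the median peak in tags in Ly6CHi-RM and above it in the other 4. Pdk4, a kinase that limits the use of glucose-derived pyruvate, had a region 13668.5 bp from the gene at 82.4, 97.0, 85.6, 74.2 and 91.7 in the same order. Its nearest blood peak centre was 98780 bp away. Dcstamp, a cell fusion gene, had a region at 78.9, 90.0, 66.1, 55.9 and 77.3. The region inside Enpp2, which encodes the lysophospholipid-making enzyme autotaxin, was at 12.5 in KN-RM, 79.4 in KC-N and 97.4 in KC-H. Ppp1r15a, a stress-response phosphatase regulator, had 2 regions, and both regions of all liver lists at this gene were absent from blood. Their nearest blood peak centres were only 773 and 1961 bp away, in blood peaks assigned to other genes.

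The highest-scoring of the isolated regions lay by genes of varied function. First among the 12 by mean percentile was chr17:34293630-34293853, which is 5918.5 bp from the MHC class II gene H2-Aa and 1952 bp from a blood peak centre. It had normalized tag counts of 53.8 in KN-RM, 93.7 in KC-N, 258.9 in Ly6CLo-RM, 113 in Ly6CHi-RM and 43.7 in KC-H. Percentiles at this region were 94.5 in KC-N and Ly6CLo-RM and 77.2 in Ly6CHi-RM. Regions inside Gucy2g, a guanylate cyclase gene, and Gramd1b, which encodes a sterol transfer protein, were at 98.8 and 96.7 in KC-H and at 79.7 and 67.3 in Ly6CHi-RM. Rftn1, encoding the lipid raft protein raftlin, had the opposite lean, with 233.8 normalized tags in Ly6CLo-RM and 20.6 in KC-H, where it stood at 58.7. Of the 12, the region by Arhgef37 had the lowest Ly6CHi-RM percentile, 48.2, and the second Hilpda region the lowest of all, 42.5 in Ly6CLo-RM.

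**Figure D4:**
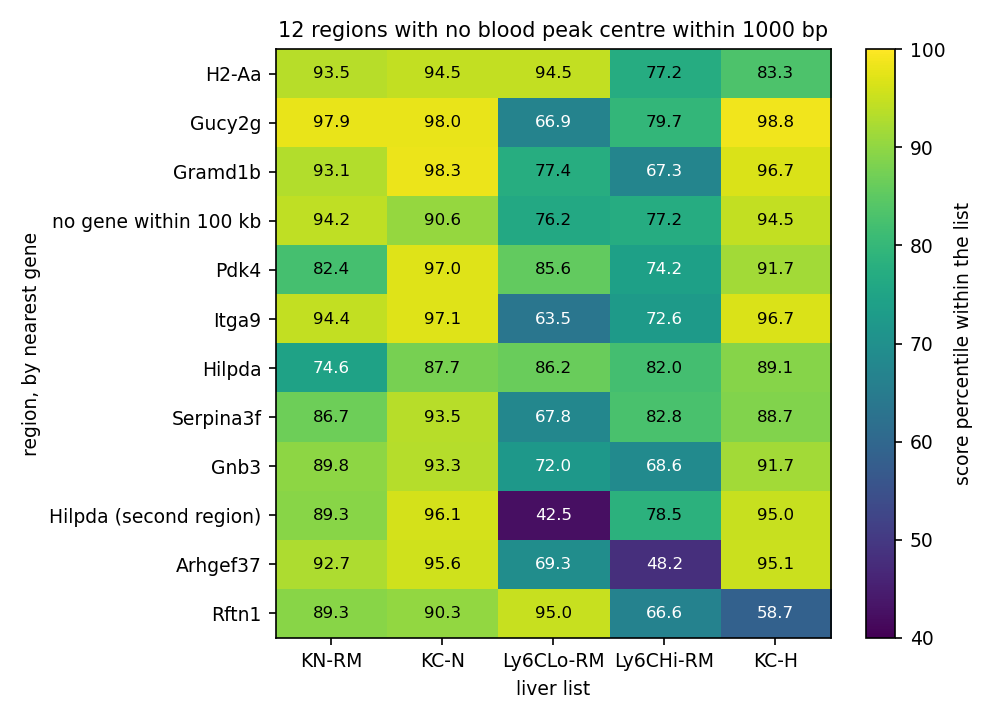
Score percentile within each liver list (x axis and printed values, colour scale from 40 to 100) of the 12 regions with the highest mean percentile among those with no blood peak centre within 1000 bp (y axis, by nearest gene, highest mean at the top). H2-Aa stands at 94.5 in Ly6CLo-RM and Gucy2g at 98.8 in KC-H, and the lowest value in the 3 F4/80-high columns is 58.7, Rftn1 in KC-H.

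Gene lists were read against the 3.45% of all regions with a gene within 100 kb that were absent from blood. Antigen presentation had the highest share of the lists with at least 20 regions, 10 of 57 (17.5%, 9.82% to 29.4%) at 6 of its 13 genes. Cd74, the invariant chain that chaperones MHC class II, had 3 of them, H2-Eb1 and the class II transactivator gene Ciita 2 each, and H2-Aa, H2-Ab1 and the costimulator gene Cd86 1 each. The median percentiles of these 10 regions were 52.6 in KN-RM, 65.0 in KC-N, 67.7 in Ly6CLo-RM, 32.4 in Ly6CHi-RM and 59.8 in KC-H. All 10 were higher in Ly6CLo-RM than in Ly6CHi-RM, and 9 were higher in KC-N than in KC-H. A blood peak centre was over 1000 bp away from 4 of the 10 and nearer to the other 6. Peaks at H2-Ab1 numbered 4 in KN-RM, 4 in KC-N, 15 in Ly6CLo-RM, 4 in Ly6CHi-RM, 7 in KC-H and 3 in blood, and those at H2-Eb1 9, 9, 20, 7, 10 and 4. H2-Aa, H2-Ab1 and H2-Eb1 are neighbours on chromosome 17, so their regions share a locus. The dendritic cell list, whose cells also carry class II, had 83 peaks in Ly6CLo-RM and 92 in blood, with 1 of its 21 regions absent from blood; its part in the class II result was not tested.

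Hypoxia and glycolysis genes had 7 of 60 regions absent from blood (11.7%, 5.77% to 22.2%), 4 of them at Hilpda, 2 at the hexokinase gene Hk2 and 1 at the lactate dehydrogenase gene Ldha. The Trem2-type list of lipid-associated macrophage genes had 8 of 69 (11.6%, 5.99% to 21.3%). These were spread over 7 genes, with 2 at Anxa5, a phosphatidylserine-binding protein gene, and 1 each at Cd9, Cd63, Plin2, Lgals3, Cd36 and Atf3. NF-kB and inflammatory genes had 11 of 108 (10.2%, 5.78% to 17.3%), 4 at Tnfaip3, 2 each at Nfkbiz and Nlrp3 and 1 each at Rel, Nfkbie and Cxcl2. Of these 11, 9 were higher in Ly6CLo-RM than in Ly6CHi-RM. The classical monocyte list had 3 of 21 (14.3%, 4.98% to 34.6%), 2 of them at Ly6c2, one of a family of near copies, and 1 at Plac8. These lists were written with earlier results of the same data known, and Hilpda and Tnfaip3 alone gave 4 regions each to theirs.

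Of the lists with at least 20 regions, the others had intervals that held 3.45%, but this rests on lists of unequal length. With equal-length lists, where 6.87% of all regions with a gene were absent from blood, the shares were 22 of 145 (15.2%, 10.2% to 21.9%) for early response genes, 9 of 49 (18.4%, 9.98% to 31.4%) for interferon genes and 13 of 83 (15.7%, 9.39% to 25.0%) for NRF2, iron and heme genes. Adhesion genes (9 of 68, 7.12% to 23.3%) and macrophage lineage transcription factors (15 of 120, 7.72% to 19.6%) then also had intervals above 6.87%. The interval of NF-kB genes (9 of 77, 6.27% to 20.8%) held 6.87%. The listed genes as a whole had 153 of 1099 (13.9%) with equal-length lists. The Trem2-type list then had 10 of 49 (20.4%, 11.5% to 33.6%), and hypoxia and glycolysis genes 7 of 49 (14.3%, 7.10% to 26.7%). Every interval just given for a gene list held the 13.9% of the listed genes. These lists were thus not set apart from the listed genes in general. Housekeeping genes had 5 of 47 (10.6%, 4.63% to 22.6%), and antigen presentation, at 14 of 46 (19.1% to 44.8%), lay above 13.9%. The values that follow are for the full lists. LXR and lipid handling genes had 6 of 105, 3 of them at Abcg1 and 1 each at Abca1, Cd36 and Lipa. Lysosome genes had 5 of 79, and TGF-beta and BMP genes 6 of 109. Early response genes (AP-1, EGR) had 7 of 179 (3.91%), and macrophage lineage transcription factors 7 of 173 (4.05%), among them Cebpb with 2 and Runx1 and Zeb2 with 1. Kupffer cell identity genes had 1 of 33, at Id3, and complement and dead cell uptake genes 1 of 31, the C1qc region. Heat shock genes had 0 of 42 (up to 8.38%). Housekeeping genes had 3 of 56 (5.36%, 1.84% to 14.6%).

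Away from gene ends, where 4.64% of all regions with a gene were absent from blood, the shares were 15.8% for antigen presentation, 16.3% for hypoxia and glycolysis, 7 of 54 for the Trem2-type list, 13.6% for NF-kB and 3 of 16 for classical monocyte genes. With each region given the share of its score class and position over all genes, the value was 3.28% for antigen presentation, 3.14% for hypoxia and glycolysis, 3.91% for the Trem2-type list, 4.14% for NF-kB and 5.61% for classical monocyte genes. The classical monocyte value lies inside that list's own interval of 4.98% to 34.6%. The listed genes as a whole had 89 of 1496 (5.95%, 4.86% to 7.26%), against 3.76% by score class and position. The full-list intervals of hypoxia, NF-kB and classical monocyte genes held this 5.95%. That of the Trem2-type list began just above it, at 5.99%, and that of antigen presentation at 9.82%. Marker lists of other cells were thinly covered: neutrophil, T and NK cell, liver endothelial and stellate cell genes had 0 of 7, 5, 15 and 4 regions. B cell and hepatocyte genes had 1 of 3 and 1 of 5, at Cd79a and Ttr.

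**Figure D5:**
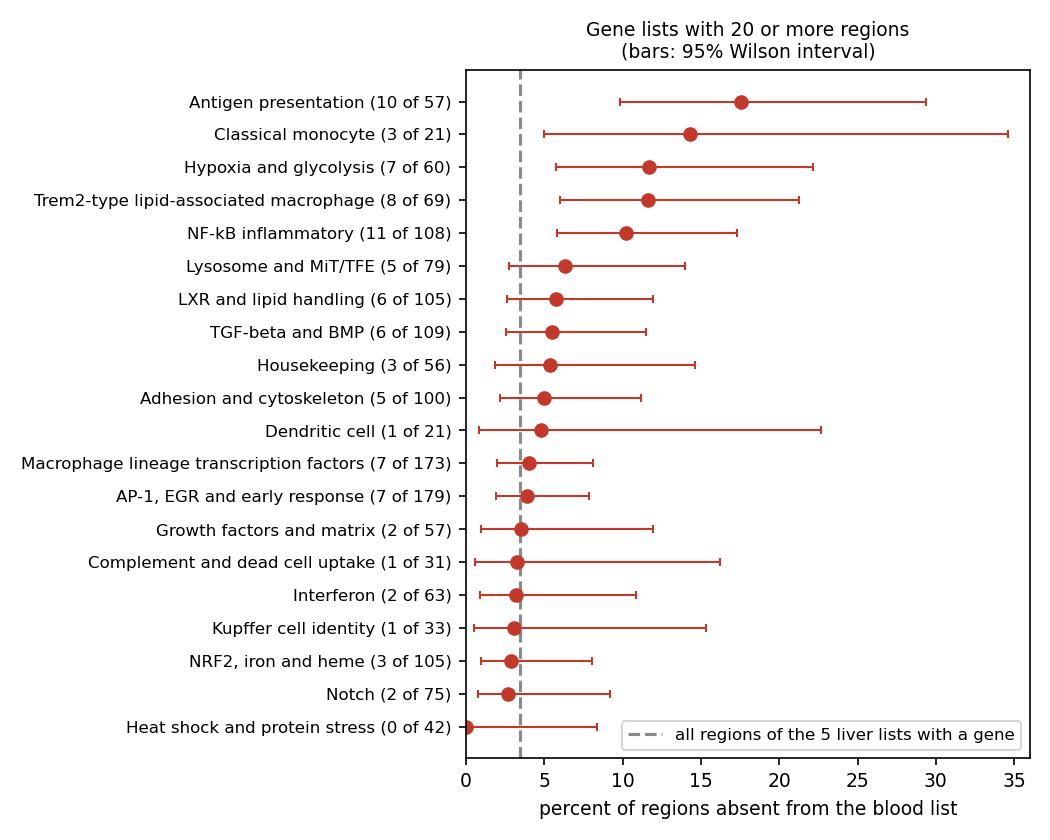
Percent of the regions of all 5 liver lists that are absent from the blood list (x axis), for the gene lists with at least 20 such regions (y axis, counts in brackets). Points are shares, bars 95% Wilson intervals, and the dashed line is the 3.45% over all regions with a gene. Antigen presentation is at 17.5%, NF-kB at 10.2% and Kupffer cell identity at 3.03%.

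A small number of the 940 regions lay on unplaced sequence, in a dense run at the start of a chromosome or under an extreme tag count. No list of hard-to-map sequence was used here. The largest run within 100 kb held 12 regions at chr9:3001327-3032141, at the very start of the assembled chromosome, with a mean percentile of 15.8 and no gene nearby. A further 8 lay within 100 kb on 1 unplaced sequence, and 9 were on unplaced sequences in all (0.957% against 0.153% of regions of all 6 lists). One region on chromosome 2, chr2:98662269-98662514, had 1957 to 5534 normalized tags in the liver lists, far above the list medians, and a blood peak centre 361 bp away. The other runs were the 5 regions of Itga9, 5 around Fosb, Ppm1n and Vasp on chromosome 7 and 5 around Stk10 on chromosome 11. Chromosome X held 2 of the 940 regions (0.213%, 0.0584% to 0.772%), against 1.68% of regions of all 6 lists. The share was also low for the 845 regions that the control-diet list lacked, at 1 region (0.118%, 0.0209% to 0.667%).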

How the data were processed

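The labels' files hold 1 peak list per group, each from 2 ATAC-seq libraries. Per the submitters' processing notes the tools were DESeq2, HOMER and Bowtie2 and the builds GRCm38 and mm10. Not given in the sources used here were roles, versions, library depth and read filters. The deposited signal is the authors' normalized tag count per peak, and the deposited score is a whole number that their pipeline gave each peak. With its scale unstated, it was used only as a percentile within a list.

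Peaks of all lists were merged where they overlapped by 1 bp or more. Shares have 95% Wilson intervals. Because lists hold no replicate values, no test between groups was possible. Peak coordinates are printed as the lists give them. Genes (21896 protein-coding) and promoter windows came from RefSeq tables of GRCm38.p6. The gene table has no strand, exons or introns, so both gene ends were used. All 21 motifs were searched on both strands of promoter windows.

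The members and 26 gene lists (464 genes, 462 matched) were chosen with earlier results of these data known. Named are the 20 genes with most regions, up to 4 genes per list, the 12 isolated regions of highest mean percentile and 5 runs; further list members, genes without blood peaks and printed promoters were chosen after their values were seen. Merging and gene assignment were tested on simulated lists. Python 3.11.15, matplotlib 3.10.9, scipy 1.17.1, pandas 2.3.3 and numpy 2.4.6 were used.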

Additional observations from a re-analysis of the deposited data

How the results depend on the processing

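The number of regions ran from 85 to 1441 over the settings. It was 85 (0.616% of the regions of all 5 liver lists) with the better-scored 50% of each liver list set against the whole blood list, 501 with the better 50% of every list, 539 (2.04%) with no blood centre within 1000 bp, 2.77% with none within 500 bp and 412 (1.56%) with none within 2000 bp. Equal-length lists gave 7.03%, and 1441 (7.31%) when ranked by tag count. Leaving a list out of the rule gave 4.22% (KC-H), 4.17% (KN-RM), 5.18% (Ly6CHi-RM) and 4.36% (Ly6CLo-RM). The share near gene ends was 10.6% at 500 bp and 28.0% at 2500 bp, 27.9% with equal-length lists, 30.6% and 25.8% with the better 50% of liver and of all lists, 7.24% for isolated regions and 5.21% for promoter windows. The share with a blood centre within 1000 bp was 46.3% with a 50% overlap, 34.0% with equal lengths, and 47.1% and 32.1% with the better 50% of liver and of all lists. Listed genes had 13.9%, 2.05%, 9.86% and 3.28% with equal lengths, the better 50% of liver lists, that of every list and isolated regions. A 20 kb window gave 6.11% of genes. By tag count the mean percentile in Ly6CHi-RM was 30.7. The cause of these changes was not tested. Antigen presentation genes ran from 6.45% to 30.4%, Trem2-type genes from 6.06% to 21.2%, hypoxia genes from 5.88% to 16.3% and NF-kB genes from 1.79% to 13.6%. Lists nearer to the share over all genes moved as far: early response genes ran from 0.855% to 15.2%, interferon genes from 0% to 18.4% and NRF2 genes from 0.952% to 15.7%, each highest with equal-length lists. Centres within 200 bp gave the same 940 regions in number. For peaks 200 bp wide this is nearly the same rule as an overlap of 1 bp, so it is no separate check. Leaving out unplaced sequences, the start of chromosome 9 and the region over 1000 tags left 918. The last, the equal-length count for each missing list, the promoter windows, the regions away from gene ends and the 100 bp overlap were chosen after seeing the data. No paired analysis was possible because each list was made from both libraries of its group; for the same reason no replicate could be left out. The search for motifs in the 200 bp around each region's centre was not run, since no genome sequence was used here.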

Other observations

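Hairpins of microRNAs were as frequent near the 940 regions as near regions of all 6 lists: 24 of 940 (2.55%, 1.72% to 3.77%) lay within 10000 bp of one, against 2.45%. Among them were 2 regions near Mir34a, 1 at 7496 bp with a mean score percentile of 79.9 over the liver lists and 1 at 4083 bp with 56.7. Regions near Mir21a, which is abundant in macrophages, and near Mir22 and Mir146b had mean percentiles of 24.8, 33.9 and 34.7. Their nearest blood peak centres were 549, 420 and 1046 bp away. For the Mir34a regions these distances were 878 and 4295 bp.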
